A study of Mus musculus with 12 samples.

Results

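The 6 libraries described here come from PyMT mammary tumors of C57BL/6 mice, out of which CD8+ T cells had been sorted; 3 carry the label WT and 3 the label S1PR4 KO. All 6 were chosen by their sample titles, from the 12 samples of the series, and every one of the 357 genes in their count tables was used. PyMT mice carry the polyoma virus middle T antigen and develop mammary tumors. The tumors were taken untreated, once a tumor had reached a diameter of 1.5 cm, and both groups share the tumor model and the strain. The promoter that drives the antigen, the kind of S1PR4 deletion, the sex of the mice and any pooling of animals are not given in the sources used here. P-values therefore measure the spread between these libraries, which may in part be technical. The other 6 samples are whole colons, 3 per genotype, from day 84 of a course of azoxymethane (10 mg/kg) and dextran sulfate sodium (0.5%), and they are used here only for comparison.

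S1PR4 is a G protein-coupled receptor for the lipid sphingosine-1-phosphate and is found mainly on blood and lymphoid cells. CD8+ T cells read peptides on MHC class I with the T cell receptor and the CD8 co-receptor, and kill target cells with perforin and granzymes. In a mammary tumor they lie among luminal epithelial cells, which are held together by claudins and desmosomes and can make milk and other secretory proteins. In sorted bulk RNA, fewer cells of a type and less RNA per cell cannot be told apart.

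The defining markers of the sorted cell type are not among the 357 genes. Of 112 genes in 4 lists of T cell genes (receptor and pan-T, CD8 and cytotoxic, activation and exhaustion, naive and memory), 0 were listed. Cd8a, Cd8b1 and Cd3e are among those not listed. S1pr4 was not listed either, so the labels WT and KO could not be checked in these libraries. In colon the S1pr4 counts were 61, 47 and 25 for the label WT, and higher, at 154, 162 and 118, for the label KO. The kind of deletion is not given, so these counts could not check the colon labels either. In contrast, 19 of 52 genes of a list for mammary luminal epithelium and milk (36.5%) were listed, and 23 of 35 lists for cell types and functions had no listed gene. How the 357 genes were selected is not given in the sources used here. No gene had a KO mean between 2.42 times below and 2.26 times above its WT mean, and p-values would be too small if the list was chosen on these libraries.

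The summed counts of the listed genes were 57721, 183504 and 44811 in the WT libraries and 26702, 17721 and 17407 in the KO libraries. These are sums over a partial list and not sequencing depths. WT replicate 2 stood apart, with the highest raw count of all 6 libraries for 346 genes and a median of 3.86 times the mean of the other WT libraries. Values are therefore given as raw counts, counts per 100 counts of Jun in the same library, and counts scaled by TMM (trimmed mean of M values), which sets the middle of the listed genes to no change. Jun, a subunit of the AP-1 transcription factor, had the most counts in each library, and the choice of it as a divisor was made after the counts were seen.

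On raw counts nearly the whole list was lower in the KO libraries. The KO mean was lower for 351 genes and higher for 6, and the median gene had a WT mean 5.96 times its KO mean. The groups did not overlap for 334 lower genes (93.6% of all listed) and 6 higher genes (1.68%), and overlapped for 17. The 6 higher genes were Treml2, Enc1, Camk2b, Hist1h2ai, Hist1h2bl and Hal. With edgeR's quasi-likelihood test on unscaled counts and Benjamini-Hochberg adjustment, 325 of 352 tested genes were called (92.3%): 323 fell (91.8%), and Camk2b and Hal rose (0.568%). Without WT replicate 2, the library with the highest counts, 304 were called. How the list was selected is not given, and a choice made on these libraries would itself set part of these shares.

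**Figure D1:**
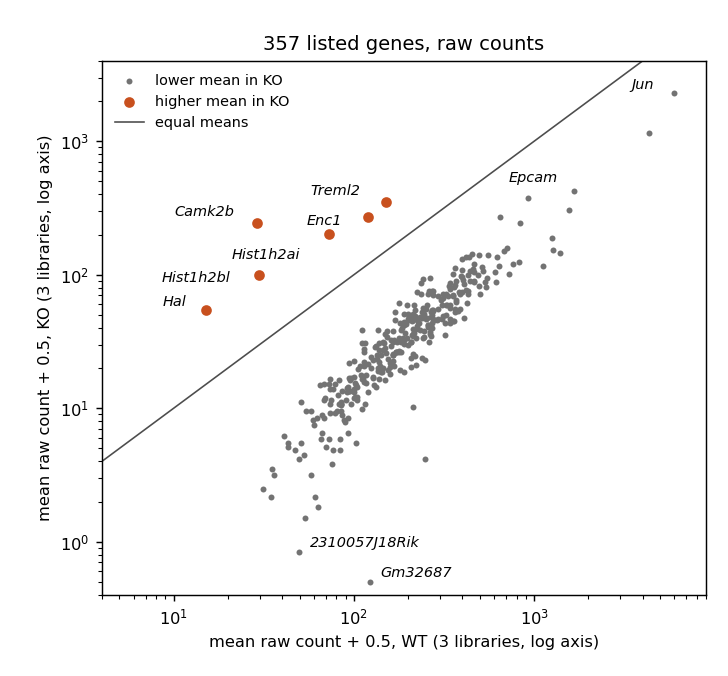
Mean raw count of each of the 357 listed genes in 3 WT libraries (x axis) and 3 KO libraries (y axis), both log axes with 0.5 added, with the line of equal means. The cloud of 351 genes lies below the line and 6 genes lie above it.

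Counted within a library against Jun, the shift was smaller. Per 100 Jun counts the groups did not overlap for 172 lower genes (48.2%) and 6 higher genes (1.68%), and overlapped for 179. Jun itself had raw counts of 3321, 10427 and 4211 in WT and 2575, 2269 and 2079 in KO. With edgeR scaled to Jun, 176 of 351 tested genes were called (50.1%), of which 170 fell (48.4%) and 6 rose (1.71%). All KO values of Jun lay below all WT values, so a ratio to Jun shows unequal change and not that Jun was constant. Jun was among the genes least reduced on raw counts, with a WT mean 2.59 times its KO mean against a median of 5.96. With such a divisor most other genes must come out lower, so the number of falls is set largely by this choice. After TMM scaling 45 genes were lower (12.6%) and 47 higher (13.2%) with no overlap, and the median fitted log2 ratio was -0.0067, against -2.57 on raw counts and -1.12 scaled to Jun.

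**Figure D2:**
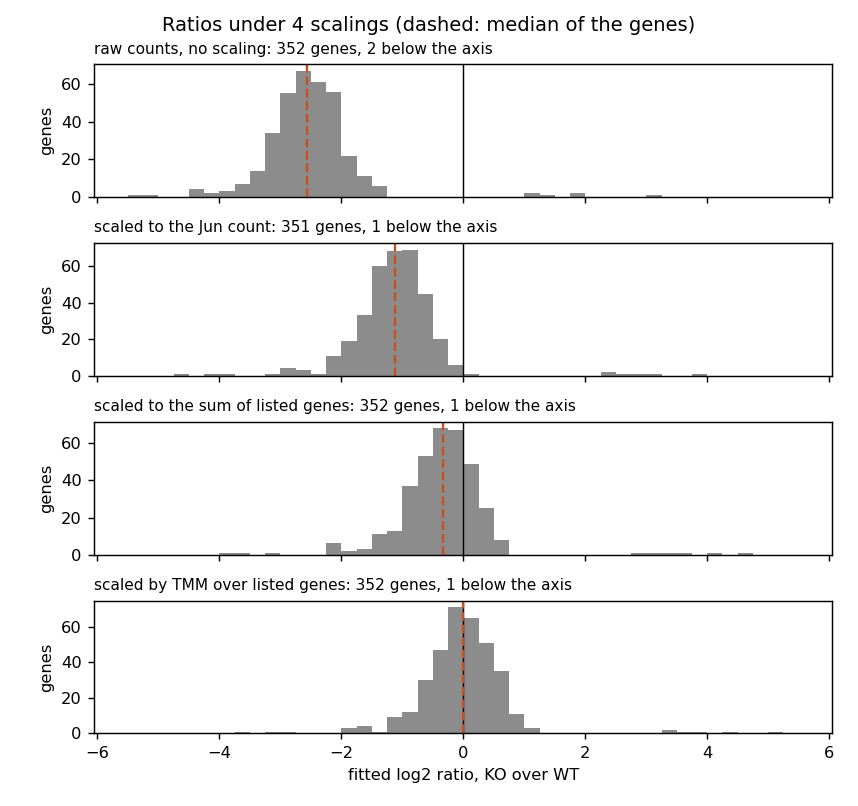
Histograms of the fitted log2 ratio of KO to WT for the tested listed genes under 4 scalings, with the number of genes on the y axis and the median dashed. The median moves from -2.57 on raw counts to -1.12 with Jun and -0.0067 with TMM, while the small group of genes on the right stays above 0 in each panel.

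On the TMM scale edgeR's quasi-likelihood test called 9 of 352 tested genes at an adjusted p under 0.05 (2.56%). Hal, Treml2 and Enc1 rose (3 genes, 0.852%), and Scgb2b27, Tbx15, Nexmif, Tspan8, Slc4a4 and the gene model Gm32687 fell (6 genes, 1.7%). At an unadjusted p under 0.05 there were 73 genes. Of the 9, Hal and the 6 lower genes were called in the same direction in each of 6 fits, namely edgeR on TMM-scaled, unscaled, sum-scaled and Jun-scaled counts, DESeq2 and limma-voom. In edgeR with DESeq2 size factors Treml2, Enc1, Gm32687 and Slc4a4 were not called (adjusted p = 0.0554 for each). Without the filter on low counts Slc4a4 (edgeR, adjusted p = 0.0694), Treml2 (0.0525) and Enc1 (0.0533) were not called. Single libraries moved the number of calls, to 4, 18 and 15 without WT replicates 1, 2 and 3 and to 19, 2 and 3 without KO replicates 1, 2 and 3. Hal and Scgb2b27 were called in all 6 of these fits, Tbx15 in 5 (lost without KO replicate 2) and Nexmif in 4 (lost without KO replicate 2 or 3). Treml2, Enc1, Tspan8 and Gm32687 were called in 3 (lost without WT replicate 1 or KO replicate 2 or 3), and Slc4a4 in 2, those without WT replicate 2 or 3. Treml2 and Enc1 kept their direction in each of the scalings and tools named above, with an adjusted p of 0.174 and 0.204 in the unscaled edgeR fit.

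Hal encodes histidine ammonia-lyase, which turns histidine into urocanate, and lies on chromosome 10 (GRCm38, 93488768 to 93519304, plus strand). Its raw counts were 12, 23 and 9 in WT and 42, 60 and 60 in KO. The lowest KO library was 1.83 times the highest WT library before any scaling. TMM-scaled counts were 10.4 ± 3.18 (SD, n = 3) in WT and 208 ± 90.9 (SD, n = 3) in KO. The log2 ratio was 4.41 ± 0.42 (SE; edgeR, adjusted p = 1.04e-06), and 1.87 ± 0.89 on raw counts (edgeR, adjusted p = 0.0387).

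Treml2 encodes a receptor of the TREM-like family that is found on B cells, myeloid cells and T cells, and lies on chromosome 17 (48299498 to 48312533). Its raw counts were 125, 153 and 175 in WT and 343, 341 and 371 in KO. The groups did not overlap, and WT replicate 2, the highest library for most genes, was not the highest for Treml2. The log2 ratio was 3.29 ± 0.62 with TMM (edgeR, adjusted p = 0.0366) and 2.31 ± 0.43 scaled to Jun (edgeR, adjusted p = 4.01e-06).

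Enc1, an actin-binding BTB-kelch protein first described in the nervous system, lies on chromosome 13 (97241105 to 97253034). Its raw counts were 71, 143 and 143 in WT and 263, 265 and 278 in KO, again with no overlap. The log2 ratio was 3.32 ± 0.62 with TMM (edgeR, adjusted p = 0.0366). Within a library Enc1 kept nearly the same proportion to Treml2 in all KO libraries, at 76.7, 77.7 and 74.9 Enc1 counts per 100 Treml2 counts. The WT libraries spread wider around them, at 56.8, 93.5 and 81.7.

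Camk2b encodes the beta subunit of calcium/calmodulin-dependent kinase II and lies on chromosome 11 (5969644 to 6066362, minus strand). It had raw counts of 42, 9 and 35 in WT and 205, 248 and 272 in KO. WT replicate 2 was the lowest library here, although it was the highest for 346 other genes. The lowest KO count was 4.88 times the highest WT count, the widest gap among the 6 genes higher on raw counts. Camk2b did not pass the TMM test (log2 ratio 5.04 ± 1.17, edgeR, adjusted p = 0.116), but rose in the unscaled edgeR fit (3.07 ± 0.98, adjusted p = 0.00925) and in DESeq2 (adjusted p = 0.000219).

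The histone genes Hist1h2ai and Hist1h2bl encode core histones H2A and H2B and lie next to each other on chromosome 13, at 21716422 to 21716814 and 21715763 to 21716143, on opposite strands. Hist1h2ai had raw counts of 72, 73 and 71 in WT and 112, 244 and 247 in KO. Hist1h2bl had 22, 21 and 45 in WT and 55, 93 and 151 in KO. Both were higher in all KO libraries, and KO replicate 1 was the lowest KO library for both. Neither passed the TMM test (log2 ratio 3.70, adjusted p = 0.116, and 3.92, adjusted p = 0.149, edgeR). Their adjusted p was 6.6e-06 and 7.22e-06 with edgeR scaled to Jun. Clustered histone genes are near-identical copies, and reads may be split between them, so both values are uncertain.

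Summed, these 6 genes made up 6.00, 2.31 and 10.8 counts per 1000 counts of the other listed genes in WT and 39.7, 76.0 and 86.0 in KO. They were picked for being higher, so the sum only describes how far the libraries lie apart. KO replicate 1 was the nearest of the KO libraries to WT on this ratio, and WT replicate 3 the nearest of the WT libraries to KO.

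**Figure D3:**
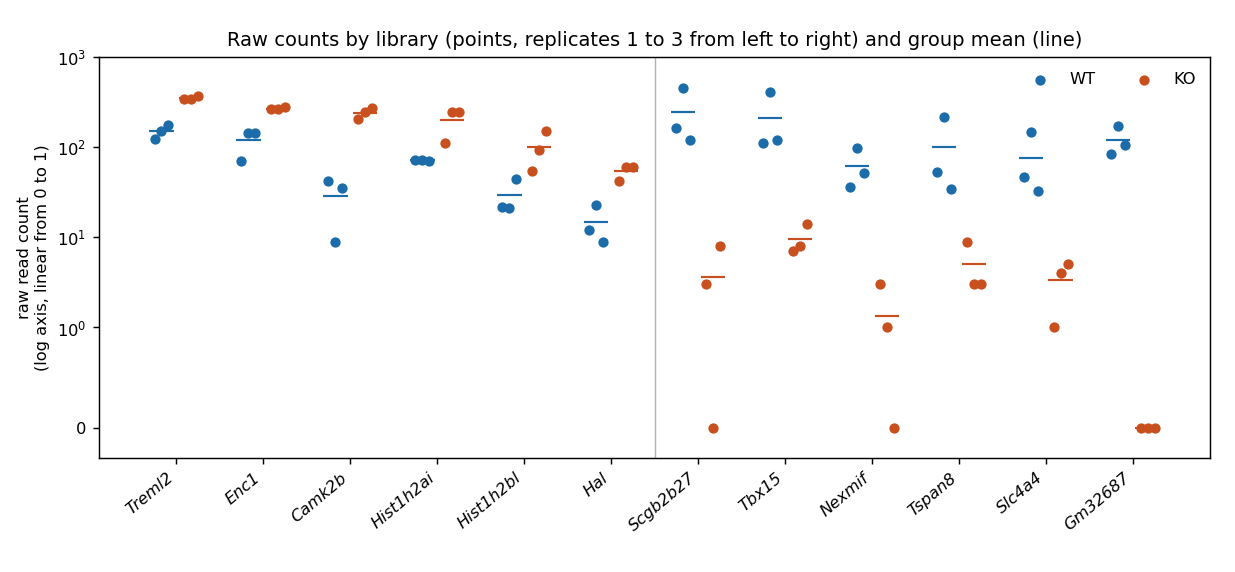
Raw read counts of 12 genes in each library (points, WT blue and KO orange, log axis that is linear from 0 to 1) with the group mean as a line; the 6 genes left of the divider had a higher KO mean. No WT point overlaps a KO point in any of the 12 genes, and Gm32687 is at 0 in all 3 KO libraries.

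Scgb2b27, a secretoglobin of the androgen-binding protein cluster on chromosome 7 (34011921 to 34013942), was among the 6 genes that fell on the TMM scale. Its raw counts were 163, 458 and 122 in WT and 3, 0 and 8 in KO. It fell to a log2 ratio of -3.56 ± 0.57 (edgeR, adjusted p = 0.0054). In KO replicates 1 and 2 it was at or below the floor of 3 counts, so its fitted size is less sure than its direction. Its neighbour Scgb1b27 (34021483 to 34022881) had 26, 86 and 70 in WT and 2, 1 and 2 in KO, with a log2 ratio of -2.95 ± 0.96 that did not pass the TMM test (edgeR, adjusted p = 0.143). Secretoglobins form families of close copies, and reads may be split among them.

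Tbx15, a T-box transcription factor of skeletal and adipose development, lies on chromosome 3 (99240381 to 99354259). Its raw counts were 112, 409 and 119 in WT and 7, 8 and 14 in KO. The lowest WT count was 8 times the highest KO count. It fell, with a log2 ratio of -1.89 ± 0.39 (edgeR, adjusted p = 0.01). Within a library Tbx15 made 3.48, 5.16 and 6.42 counts per 100 counts of the transcription factor gene Trps1 in WT, and 0.561, 0.681 and 1.37 in KO.

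Nexmif, an X-linked gene for a neurite extension and migration factor, had raw counts of 36, 99 and 52 in WT and 3, 1 and 0 in KO. The fitted log2 ratio was -3.21 ± 0.67 (edgeR, adjusted p = 0.011). Slc4a4 encodes a sodium bicarbonate cotransporter. It had 47, 146 and 33 in WT and 1, 4 and 5 in KO, with a log2 ratio of -1.90 ± 0.49 (edgeR, adjusted p = 0.0366). The KO counts of both genes were at or near the floor of 3 counts, so their fitted sizes are less sure than their direction.

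Tspan8, a tetraspanin of epithelial membranes on chromosome 10 (115816832 to 115849893), had raw counts of 53, 218 and 34 in WT and 9, 3 and 3 in KO. The log2 ratio was -1.70 ± 0.40 (edgeR, adjusted p = 0.0222). KO replicates 2 and 3 were at the floor of 3 counts, so the fitted size is less sure than the direction. Set against Epcam, another epithelial surface gene, Tspan8 made 6.81, 6.84 and 3.35 counts per 100 Epcam counts in WT and 1.75, 0.888 and 0.706 in KO. Every KO value of this ratio lay below every WT value. The same held for Ehf, Cldn7 and Lalba per 100 Epcam counts, and not for Elf5, Erbb2, Wfdc18, Cldn3 and Cldn4. Epcam was itself less reduced than the median listed gene, with a raw WT mean 3.90 times its KO mean against 5.96.

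The gene model Gm32687 was the only listed gene with 0 counts in all 3 KO libraries. It had 84, 174 and 107 counts in WT. With the floor of 3 counts per library it was at least 40.6-fold lower in KO on raw counts and at least 8.45-fold lower after TMM scaling. Gm32687 lies on chromosome 10 (81863934 to 81881081), 0.36 Mb from S1pr4 (81497747 to 81500132). The 2 other listed genes within 1 Mb of S1pr4 did not pass the TMM test. Gm3055, at 0.24 Mb, had a mean of 172 in WT and 26 in KO (log2 ratio -0.41, edgeR, adjusted p = 0.75). Ankrd24, at 0.13 Mb, had a mean of 168 in WT and 45 in KO (log2 ratio 0.62, edgeR, adjusted p = 0.201). Hal lies 11.99 Mb from S1pr4, and 19 listed genes (5.34%) are on chromosome 10 against 4.98% of the genes of the colon table.

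The promoter sequences of 4 of these genes are shown, chosen as follows. Hal and Camk2b were higher in both materials, and Gm32687 was at 0 in both KO groups. Tspan8 was the called gene among the epithelial surface proteins and mucins. Each sequence is the 250 bases before the annotated start, 5′ to 3′ on the gene's strand, from RefSeq on GRCm38.p6. Their positions are chr10:93488518-93488767 for Hal, chr11:6065749-6065998 on the minus strand for Camk2b, chr10:81863641-81863890 for Gm32687 and chr10:115817034-115817283 for Tspan8. Capitals mark every match, on either strand, of 5 motifs: AACCGGTT (Grainyhead-like), GCCNNNGGC (AP-2), TGANTCA (AP-1), GGAATG (TEAD) and GGGCGG (the GC box).
Hal: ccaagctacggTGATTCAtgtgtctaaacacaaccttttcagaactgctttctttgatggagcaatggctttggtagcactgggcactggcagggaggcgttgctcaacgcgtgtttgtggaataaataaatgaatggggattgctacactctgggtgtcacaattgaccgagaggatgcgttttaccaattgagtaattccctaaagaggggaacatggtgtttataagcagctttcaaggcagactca
Camk2b: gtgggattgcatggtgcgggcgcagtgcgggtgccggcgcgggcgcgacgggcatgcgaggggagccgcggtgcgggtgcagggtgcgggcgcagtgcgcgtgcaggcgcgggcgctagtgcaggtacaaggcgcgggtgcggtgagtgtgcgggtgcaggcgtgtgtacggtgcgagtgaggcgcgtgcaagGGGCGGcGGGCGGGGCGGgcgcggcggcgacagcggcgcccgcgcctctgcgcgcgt
Gm32687: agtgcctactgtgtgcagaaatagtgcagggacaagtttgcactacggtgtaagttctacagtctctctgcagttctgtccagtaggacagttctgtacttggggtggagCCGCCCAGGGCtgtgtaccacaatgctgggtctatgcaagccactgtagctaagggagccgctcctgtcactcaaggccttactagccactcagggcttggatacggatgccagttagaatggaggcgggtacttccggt
Tspan8: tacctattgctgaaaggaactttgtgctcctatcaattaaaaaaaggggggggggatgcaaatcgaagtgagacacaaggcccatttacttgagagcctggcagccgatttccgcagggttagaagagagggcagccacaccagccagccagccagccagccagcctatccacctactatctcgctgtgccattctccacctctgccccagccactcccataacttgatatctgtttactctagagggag

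The Hal promoter held 1 match, of the AP-1 motif, and was 45.6% G and C. The Camk2b promoter held 3 matches of the GC box, which share bases or lie side by side, and was 78.4% G and C. Gm32687 had 1 match of the GC box and 1 of the AP-2 motif, which overlap. Tspan8 had 0 matches, which says only that these letters are not in this window.

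These motifs were searched because genes of their factors are listed, among them Grhl1, Grhl2, Tfap2a, Tfap2c, Jun and Tead3. The promoter table held 354 promoters for 253 of the 357 listed genes, each of 300 bases (250 before and 50 after the start). The AP-2 motif was in 28.8% of them and in 16.6% of all 32851 promoters of the table. The GC box was in 56.5% and 35.7%. The listed promoters were also richer in G and C, with a median of 61.2% against 52.7%, and its part in both shares was not tested. The AP-1 motif was in 6.21% and 7.81%, the TEAD motif in 14.1% and 14.7%, and the Grainyhead-like motif in 0 of the listed and 0.146% of all promoters.

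By role, 137 of the 357 listed genes were sorted into 12 groups after the gene names and their values were seen. The share of the lower genes in each group is read against the whole list, in which 93.6% were lower without overlap on raw counts. After TMM scaling the medians farthest from 0 were those of the milk and secretory proteins below it and the histones above it.

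Milk and secretory proteins had the largest median raw ratio of the 12 groups. All 11 genes were lower in KO with no overlap on raw counts. Their median WT mean was 10.3 times the KO mean, against 5.96 for all listed genes and 5.84 for the 19 listed genes of the broader list for mammary luminal epithelium and milk. That broader list had a median log2 ratio of -0.039 after TMM scaling, close to that of all listed genes (-0.0067). The summed counts of the 11 genes per 100 Jun counts were 91.3, 65.8 and 63.8 in WT and 34.3, 15.4 and 26.7 in KO. For the whole list these sums were also apart, at 1738, 1760 and 1064 in WT and 1037, 781 and 837 in KO. On the TMM scale 8 of 10 tested genes were below 0, against 181 of 352 for all listed genes tested. The median log2 ratio was -1.0, and 1 gene, Scgb2b27, passed the test.

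Among them, Ltf, the iron-binding milk protein lactoferrin that neutrophils also make, had raw counts of 1216, 2050 and 913 in WT and 210, 87 and 137 in KO. Its log2 ratio was -1.04 ± 0.35 (edgeR, adjusted p = 0.114). Lalba, alpha-lactalbumin of the lactose synthase complex, had 109, 296 and 212 in WT and 34, 19 and 7 in KO. Csn1s1, the casein gene of the list, had 24, 42 and 27 in WT and 3, 1 and 2 in KO. All 3 kept their groups apart per 100 Jun counts and after TMM scaling. Wfdc18, a small secreted WAP-domain protein, moved less, with 1119, 2589 and 968 in WT and 478, 174 and 256 in KO, and a log2 ratio of -0.075 ± 0.34 (edgeR, adjusted p = 0.92). Ltf therefore made fewer counts per 100 Wfdc18 counts in KO (43.9, 50 and 53.5) than in WT (109, 79.2 and 94.3). Btn1a1 (log2 ratio 0.10) and Pigr (0.64), of the same group, were above 0 after TMM scaling. Their groups, and those of Lrg1 (log2 ratio -0.093), overlapped per 100 Jun counts and after TMM scaling.

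Epithelial surface proteins and mucins were lower on raw counts, and Tspan8 was the member that passed the TMM test. Of 14 genes, 12 were lower with no overlap on raw counts, and the median log2 ratio after TMM scaling was 0.032. Epcam, the adhesion molecule used to mark epithelial cells, had 778, 3187 and 1015 counts in WT and 513, 338 and 425 in KO. Its direction depended on the scale: the log2 ratio was -1.96 ± 0.77 on raw counts (edgeR, adjusted p = 0.0172), -0.50 scaled to Jun (adjusted p = 0.191) and 0.56 ± 0.34 with TMM (adjusted p = 0.363). Muc1, a membrane mucin of the luminal surface, overlapped by a tie, with 137, 505 and 75 in WT and 75, 38 and 27 in KO. The mucin Muc4 had its highest count in WT replicate 3, at 83, 112 and 233 in WT and 22, 21 and 12 in KO.

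Genes of cell junctions and polarity numbered 18, of which 17 were lower without overlap on raw counts and 0 passed the TMM test. The tight junction claudins Cldn3, Cldn4 and Cldn7 had raw WT means of 5.17, 4.1 and 6.56 times their KO means. Cldn4 overlapped by 1 count, with 253, 709 and 144 in WT and 145, 74 and 51 in KO. The gene for the tight junction protein occludin, Ocln, had a ratio of 9.45, with 83, 272 and 42 in WT and 21, 14 and 7 in KO. The desmosomal cadherin gene Dsg2 had a ratio of 3.82, with 199, 991 and 194 in WT and 164, 109 and 89 in KO, and after TMM scaling it was higher in all KO libraries than in any WT library. Junction genes thus lay on both sides of the middle of the list.

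Transcription factors and co-regulators were the largest group, with 39 genes, 38 of them lower without overlap on raw counts. Ehf, an epithelial ETS factor, had 625, 2523 and 657 counts in WT and 236, 97 and 125 in KO, a ratio of 8.31. The related alveolar factor Elf5 had 187, 576 and 104 in WT and 75, 36 and 26 in KO, a ratio of 6.33. Spdef, another epithelial ETS factor, had few counts, at 14, 64 and 25 in WT and 3, 2 and 0 in KO. In contrast, the GATA-type repressor Trps1 had 3222, 7930 and 1854 in WT and 1247, 1174 and 1020 in KO, a ratio of 3.78. Trps1 and Jun had the most counts of the group, and Jun the smallest ratio in it (2.59). Pgr, the progesterone receptor, had a ratio of 4.25 (156, 344 and 103 in WT, 71, 41 and 30 in KO).

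Of the receptor tyrosine kinases, 10 of 10 were lower in KO on raw counts without overlap. After TMM scaling 8 of 10 had a log2 ratio below 0, against 181 of 352 for all listed genes tested. The median of the 10 was -0.19, and 0 passed the TMM test. Kdr, the VEGF receptor of endothelium, had 41, 153 and 23 in WT and 9, 2 and 5 in KO (log2 ratio -1.13 ± 0.42 with TMM, edgeR, adjusted p = 0.12). Epha7, an ephrin receptor, had 45, 247 and 40 in WT and 15, 6 and 7 in KO. Fgfr1, a receptor of fibroblast growth factors, had 667, 2365 and 326 in WT and 169, 113 and 63 in KO. The stem cell factor receptor Kit, also present on luminal progenitors and mast cells, had 509, 2715 and 525 in WT and 212, 180 and 167 in KO, with a log2 ratio of -0.0051 with TMM (edgeR, adjusted p = 0.995). Kdr and Epha7 kept their groups apart after TMM scaling, and Kit sat at the middle of the list.

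Growth factors and ligands (7 genes) were all lower without overlap on raw counts. Csf1, the macrophage growth factor, had 240, 301 and 251 in WT and 69, 100 and 113 in KO, and is the member whose WT libraries lay closest together. The EGF family ligand Areg had 72, 131 and 83 in WT and 9, 21 and 19 in KO. The neuregulin gene Nrg1 had 27, 105 and 19 in WT and 5, 5 and 5 in KO, and was the ligand whose groups stayed apart after TMM scaling.

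Matrix, basement membrane and integrin genes (16 genes) were lower without overlap for 15 on raw counts, with a median log2 ratio of 0.042 after TMM scaling and 0 calls. Col6a3, a collagen VI chain, had 87, 256 and 70 in WT and 49, 24 and 18 in KO. Itgb4, the integrin subunit of hemidesmosomes, had 276, 681 and 109 in WT and 111, 52 and 47 in KO, so that KO replicate 1 reached past WT replicate 3. The median raw ratio of the group was 5.81, against 5.96 for all listed genes.

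Signalling groups were also lower on raw counts, as were 93.6% of all listed genes without overlap. In the Hippo pathway 6 of 6 genes were lower without overlap on raw counts, with a median raw ratio of 4.58; Yap1, its transcriptional co-activator, had 136, 504 and 78 in WT and 71, 44 and 41 in KO. For WNT and NOTCH genes the count was 8 of 9 and the median ratio 6.37; Hey1, a NOTCH target, had 150, 452 and 60 in WT and 32, 12 and 18 in KO. For plexin, semaphorin and ROBO guidance genes it was 8 of 8 and 4.96. The median raw ratio of all listed genes was 5.96. After TMM scaling the median log2 ratios were 0.32 (Hippo), -0.041 (WNT and NOTCH) and 0.27 (guidance), with 1 of 6, 5 of 9 and 2 of 8 genes below 0. On that scale 2 genes of each group were higher in KO without overlap, and 0, 1 and 1 were lower. None of these genes passed the TMM test, and 1 gene (Ntn1) or more can stand in more than 1 group.

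The genes of the lipid mediator pathway itself were few. Spns2, the exporter of sphingosine-1-phosphate, had 156, 512 and 132 in WT and 64, 37 and 42 in KO. Plpp3, a phosphatase that breaks down lipid phosphates, had 57, 312 and 48 in WT and 27, 21 and 9 in KO. Pla2g4a, the phospholipase that releases arachidonic acid, had 74, 336 and 35 in WT and 14, 21 and 12 in KO. Of the 31 genes of an S1P pathway list, Spns2 and Plpp3 were the 2 listed. All 3 were lower without overlap on raw counts and none passed the TMM test.

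**Figure D4:**
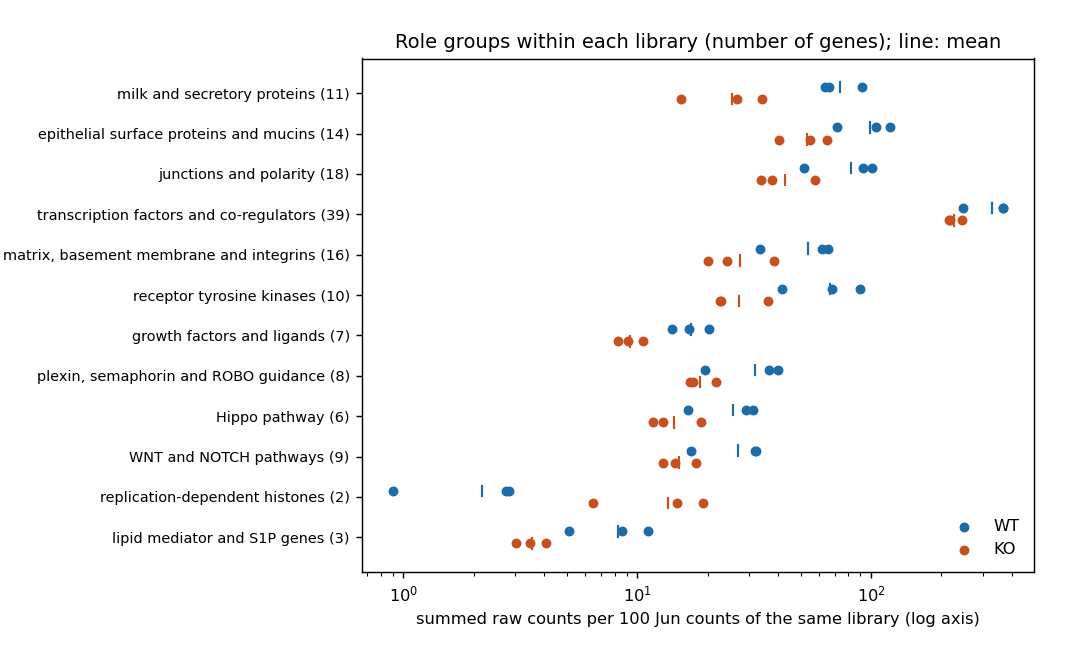
Summed raw counts of each role group per 100 Jun counts of the same library (x axis, log scale), for 3 WT (blue) and 3 KO (orange) libraries, with the mean as a short line and the number of genes in parentheses. The milk and secretory group is apart from 63.8 and above in WT to 34.3 and below in KO, and the histones lie the other way. The sum of the whole list, not drawn, was also apart (1064 and above in WT, 1037 and below in KO). So were the surface protein, transcription factor, receptor tyrosine kinase, growth factor and lipid mediator groups, and the other groups overlapped.

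A few listed genes stand in lists for other cell types. Cd14 of monocytes, Col6a3 of fibroblasts, Kdr of endothelium and Treml2, in the list for B and plasma cells, were each the 1 listed gene of their lists. The neutrophil and mast cell list had 2 listed genes, Kit and Ltf, both lower in KO on raw counts. The neuron list had 2 of 12, Camk2b and Enc1, both higher in KO. Treml2, Camk2b and Enc1 were put into these lists with results for them known. The summed count of the 19 mammary epithelial genes was 5938, 17436 and 5183 in WT and 2501, 1195 and 1380 in KO. It was lower in all KO libraries, as were the sums of the whole list, and its part in the differences between WT and KO was not tested. T cell markers that could show the number of sorted cells behind each library are not among the listed genes.

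Levels between genes can be compared per length. Per kilobase of annotated exon, Jun had the highest mean raw count in both groups, at 1877 in WT and 724 in KO. In WT it was followed by Wfdc18 (1278), Epcam (756) and Ltf (404). In KO it was followed by Hist1h2ai (511), Hist1h2bl (262) and Wfdc18 (248), and Treml2 was at rank 8 after rank 165 in WT. Ltf dropped from rank 4 to rank 18.

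The remaining 220 listed genes were in no role group. Of them 204 were lower and 4 higher without overlap on raw counts, and their median raw ratio was 5.99. After TMM scaling 27 were lower and 28 higher without overlap. The median log2 ratio was -0.013, against -0.0067 for all listed genes.

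The same genotype contrast in the colon served as a comparison in other material. Of the 17195 colon genes tested with edgeR, 0 passed the threshold (smallest adjusted p 0.641), and 5.06% had an unadjusted p under 0.05. Of the 325 listed genes tested in both materials, 18 (5.54%) had an unadjusted colon p under 0.05. The directions were mixed: 67 were higher in KO in both, 97 lower in both, 94 higher only in the CD8 libraries and 67 higher only in colon. The 2 materials share no library.

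Hal was higher in both. Its colon counts were 8, 5 and 10 under the label WT, and 662, 156 and 148 under the label KO (log2 ratio 5.42 ± 0.78, edgeR, adjusted p = 0.829). Camk2b had 258, 137 and 329 in colon WT and 578, 492 and 403 in colon KO (log2 ratio 1.11 ± 0.29, edgeR, adjusted p = 0.829). Gm32687 had 5, 7 and 7 in colon WT and 0, 0 and 0 in colon KO. These genes, with Adcy9 and Cds1, were the 5 of 350 whose scaled groups did not overlap and lay in the same direction in both materials, and 5 others lay apart in opposite directions. In colon the groups did not overlap for 8% of the listed genes tested in both and for 9.58% of all colon genes tested. S1pr4 itself had higher counts under the colon label KO and could not check the labels, so the colon directions are those of the labels.

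Treml2 and Enc1 showed no such difference in colon. Treml2 had 83, 72 and 13 in colon WT and 77, 44 and 21 in colon KO. Enc1 had 556, 535 and 651 in WT and 528, 685 and 741 in KO, and Tspan8 had 835, 880 and 831 in WT and 823, 911 and 832 in KO. Groups overlapped for all 3. The difference of the KO effect between materials was tested with an interaction term in edgeR over 350 genes, and 0 passed (0%), with 59 at an unadjusted p under 0.05. The smallest adjusted p was 0.0848 for Tspan8, with Enc1 at 0.0948, and DESeq2 called 13 genes, Tspan8, Enc1, Treml2 and Camk2b among them.

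**Figure D5:**
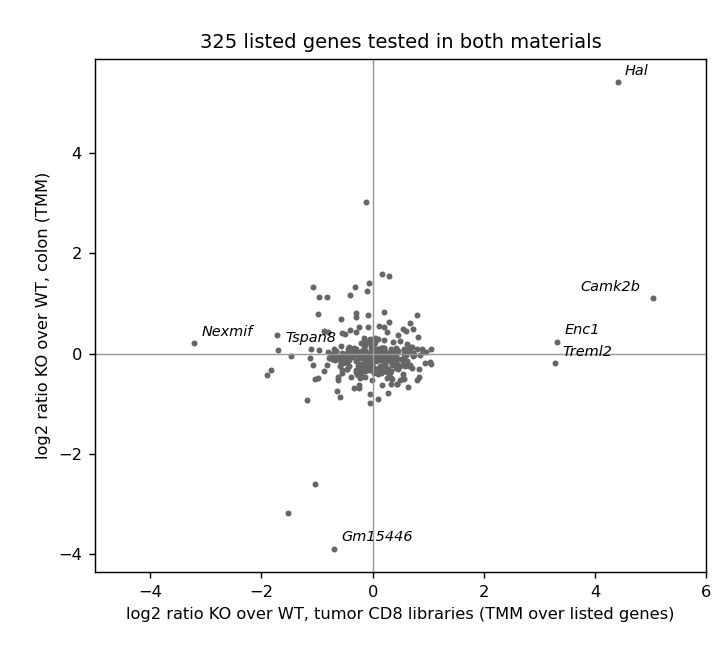
Fitted log2 ratio of KO to WT in the CD8 libraries (x axis, TMM over listed genes) and in colon (y axis, TMM), 1 point for each of the 325 genes tested in both. Hal (4.41 and 5.42) is in the upper right corner, while Treml2 and Enc1 are far right and near 0 in colon.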

How the data were processed

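The deposited tables hold read counts per gene, per the file headers, as whole numbers without normalization. RNA came from a column kit and the CD8 libraries from a stranded total RNA kit, per the labels' protocols. The submitters' processing notes name HTSeq, RSEM, STAR, TopHat2 and DESeq2, with no roles or versions, and the builds GRCm38 and mm10. Strand-specific counting and duplicate removal are not given in the sources used here. Of the 357 IDs, 356 matched GENCODE vM21 (GRCm38), all protein coding.

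Genes kept by filterByExpr (352) were tested with edgeR 4.0.16 in R 4.3.3 (robust quasi-likelihood F test, TMM over the listed genes, Benjamini-Hochberg over all tested genes, threshold 0.05). SE is the log2 ratio divided by the square root of F. Scaled counts are on the mean TMM-adjusted library size. DESeq2 1.42.0, limma 3.58.1 (voom with quality weights), other scalings and filters, and leaving out each library were alternatives. The fit was tested on simulated data. A gene at 0 in a whole group was bounded with 3 counts per library. Replicate pairs within a genotype differed by 2.71 to 20.6 times sampling variance, more than a second sequencing of 1 library would give. This cannot tell whether libraries share animals. Sums of listed genes ran from 17407 to 183504. The depth is unknown, and intervals cover counting error and library spread only.

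The members and gene lists were chosen with earlier results of these data known. The text names S1pr4, Cd8a and similar genes where listed, up to 12 higher and 12 lower called genes by p, for each list the 3 genes of smallest p, and the 5 genes of highest mean count. Other genes, and the role groups, were chosen after their values were seen. Results of some genes, and of a role group, are not reported here.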

Additional observations from a re-analysis of the deposited data

How the results depend on the processing

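The number of called genes followed the scaling. With TMM there were 9 (3 higher, 6 lower); with DESeq2 size factors in edgeR 5 (1 higher), with the summed count of listed genes 24 (20 lower), with no scaling 325 (323 lower), and scaled to Jun, an alternative chosen after seeing the data, 176 (6 higher, 170 lower). Unscaled and without WT replicate 2, also added after seeing the data, 304 were called (6 higher, 298 lower). DESeq2 called 18 (9 higher) and limma-voom 23 (14 higher), each including all 9 genes of the TMM result. Without the filter on low counts 1 gene was higher, and with a mean of at least 50 counts 4 were called, 0 of them higher. Hal, Nexmif and Slc4a4 lay below that mean and were therefore not tested with it. Leaving out each library gave 2 to 19 calls (1 to 11 higher, 1 to 12 lower): 4, 18 and 15 for the WT libraries in order, and 19, 2 and 3 for the KO libraries. The cause was not tested.

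No animal or batch links the replicate numbers, and same-numbered libraries deviated together at r = -0.031, -0.089 and 0.19; not every library correlated best with its own number. With a replicate block edgeR called 12 genes (5 higher, 7 lower), 8 of them among the 9. Slc4a4 was no longer called (adjusted p = 0.159), Camk2b (adjusted p = 0.0494), Hist1h2bl, Car6 and Scgb1b27 were, and the log2 ratio of Kit became 0.0027.

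The interaction with colon gave 0 calls, 1 with scaling to the summed count of shared genes and 13 with DESeq2; leaving out a library gave up to 5 (1 without WT replicate 2, 3 without WT replicate 3, 5 without KO replicate 1).

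Genes above 0 with TMM turned below 0 on raw counts, where the log2 ratios were -1.86 for Cd14, -2.18 for Col6a3, -2.48 for Spns2, -1.49 for Csf1, -1.38 for Jun, -2.29 for Ier3, -1.92 for Trps1 and -1.96 for Epcam. Without WT replicate 2 these were -0.87, -1.37, -1.59, -1.38, -0.71, -1.42, -1.15 and -1.08. Scaled to Jun they were -0.37, -0.81, -1.05, -0.36, -0.87, -0.54 and -0.50, Jun itself left out. By the summed count Col6a3 was -0.060, Spns2 -0.29 and Ier3 -0.055. With a mean of at least 50 counts Spns2 was -0.053, and with limma-voom Kit was 0.12. Among TMM fits that left out a library, Kit ran from -0.18 to 0.16, Plpp3 from -0.46 to 0.084, Spns2 from -0.061 to 0.084, Wfdc18 from -0.28 to 0.066 and Ier3 from -0.12 to 0.50. The cause of these changes was not tested.

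A ratio of T cell to epithelial counts within a library, and scaling to T cell genes, were planned and could not be run, since no T cell gene is listed. The partial list limits every scale: TMM assumes that most listed genes are unchanged, unscaled counts assume equal depth, and Jun is 1 gene. Jun was also among the genes least reduced on raw counts.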

Other observations

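The genes least reduced on raw counts were Arhgef5, a guanine nucleotide exchange factor, with a WT mean 2.42 times its KO mean, Trib1, a pseudokinase (2.43), and Jun (2.59). Arhgef5 had 418, 1012 and 520 counts in WT and 286, 263 and 257 in KO. Trib1 had 758, 1347 and 656 in WT and 380, 395 and 360 in KO. In both, the KO libraries lay closer together than the WT libraries. After TMM scaling both lay above 0, with log2 ratios of 1.05 and 1.03. Neither passed the test (edgeR, adjusted p = 0.114 and 0.116), although limma-voom, also with TMM, called both.

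At the other end, 2310057J18Rik of chromosome 10 had 41, 29 and 77 counts in WT and 1, 0 and 0 in KO, and Gm37988 of chromosome 1 had 57, 19 and 83 in WT and 0, 3 and 0 in KO. Both had WT replicate 2 as the lowest WT library, against the pattern of the list, and neither passed the filter for the TMM fit. Mid1 of the X chromosome, an E3 ubiquitin ligase, had 428, 330 and 176 in WT and 77, 83 and 55 in KO.

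Some epithelial genes of the list varied widely between colon libraries of 1 label. Ltf had 1575, 12 and 11 counts in colon WT and 7, 126 and 103 in colon KO, and Krt4, a keratin of stratified epithelium, had 1261, 5 and 3 in WT and 2, 57 and 65 in KO. Both were highest in WT replicate 1 and overlapped between the groups. In colon, 1 library labelled WT and 2 labelled KO had more Xist than Ddx3y counts. The CD8 table lists no Y-linked gene, so the same check could not be made there. Gm15446, at 52, 34 and 45 in colon WT and 0, 5 and 3 in colon KO, had 136, 238 and 127 in CD8 WT and 11, 21 and 29 in CD8 KO.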
